A study of Mus musculus with 11 samples.

Results

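The expression of the genes that build, transfer and trim N-linked glycans was followed in mouse embryonic fibroblasts (MEFs), the connective tissue cells that grow out of a dissociated embryo, with 4 genotypes at the Trex1 locus. The genes were taken by name from a list of 40 that covers lipid-linked glycan assembly, the oligosaccharyltransferase (OST) and glycan trimming. Of these, 39 were in the count table of 53924 named lines, and all 39 were among the 16990 genes tested. The remaining gene, Tusc3, an oxidoreductase subunit of the OST, was not analysed here. RNA-seq libraries came from 2 Trex1 p212fs, 3 Trex1 D18N, 3 Trex1-/- and 3 wild-type (WT) samples. The p212fs allele is by its name a frameshift, D18N replaces a residue of the exonuclease's active site, and Trex1-/- cells lack a functional gene by their label. All samples were MEFs from embryonic day 13.5 at passage 2, grown in the same medium, and no agent was applied. The labels' growth protocol speaks of both primary and spontaneously immortalized MEFs without saying which sample was which. Whether the replicates of a genotype were separate embryos or separate cultures is not stated, and p-values therefore cover the spread among these samples alone, part of which may be technical.

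N-glycosylation starts on the cytosolic face of the endoplasmic reticulum (ER), where sugars are added to the lipid dolichol. The glycan is turned into the ER lumen, extended, and moved as a block by the OST to asparagine residues of nascent proteins, where glucosidases and mannosidases trim it during folding. TREX1, an exonuclease that degrades cytosolic DNA, is held in the ER membrane by its C-terminus, and that C-terminus is known to bind the OST, which gives the 4 genotypes their relevance to these genes.

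Library totals ran from 16073955 to 21765536 counts. No library, not even WT, had a Trex1 count above 0, so the targeted gene's level checks no label. By Xist and Y-linked genes the p212fs libraries were both male in pattern and the WT libraries all female, while D18N replicate 1 and Trex1-/- replicate 2 were female and the other libraries of those genotypes male. Embryo sex and genotype therefore cannot be told apart between p212fs and WT. The 10 fibroblast markers summed to 25180 to 28730 CPM (counts scaled to the library's TMM-adjusted total) in p212fs, 70420 to 83600 CPM in D18N, 52320 to 62640 CPM in Trex1-/- and 53670 to 57070 CPM in WT, and none was at 0. Markers of skeletal muscle, 10 genes, summed to 31.5 to 37.6 CPM in p212fs, 634 to 1511 CPM in D18N, 6.67 to 11.1 CPM in Trex1-/- and 7.64 to 12.2 CPM in WT, with Ckm at 0 in p212fs and WT. The 10 macrophage markers summed to 463 to 609 CPM in p212fs, 58.9 to 121 CPM in D18N, 209 to 339 CPM in Trex1-/- and 790.3 to 966 CPM in WT. The WT libraries were spread for the glycosylation genes. WT replicate 2 was the lowest WT library in 24 of 39, against 38.5% of all genes tested, and WT replicate 1 the highest in 22 of 39, against 42.1%. In such bulk samples, fewer cells of a type and less RNA per cell cannot be told apart.

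As a group these genes varied less between libraries than genes at large, which were not matched to them for level. The median ratio of the highest to the lowest of the 11 libraries was 1.67 over the 39 genes, against 2.42 over 16252 genes with counts in every library. The ratio was below 2 for 31 of 39 genes (79.5%), against 35.3% of those genes. It ranged from 1.21 for the catalytic subunit Stt3a to 3.01 for the glucosyltransferase Alg8. The level of a gene per kilobase of its principal transcript was highest for OST subunits. Rpn2, the ribophorin II subunit, had a mean of 176 CPM per kilobase over the 11 libraries, Ostc 169, Ddost 153, Krtcap2 111 and Dad1 108. Prkcsh, the beta subunit of glucosidase II, followed with 107 CPM per kilobase. The lowest levels per kilobase were those of Alg6 with 3.81, Dpm1 with 2.23 and Engase with 1.49 CPM per kilobase. The place of Dpm1 is uncertain, because it overlaps Gm20716 on the same strand. With the union of annotated exons as length, an alternative chosen after seeing the data, Ddost ranked first and Dad1 ranked 14 of the 39 genes.

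**Figure D1:**
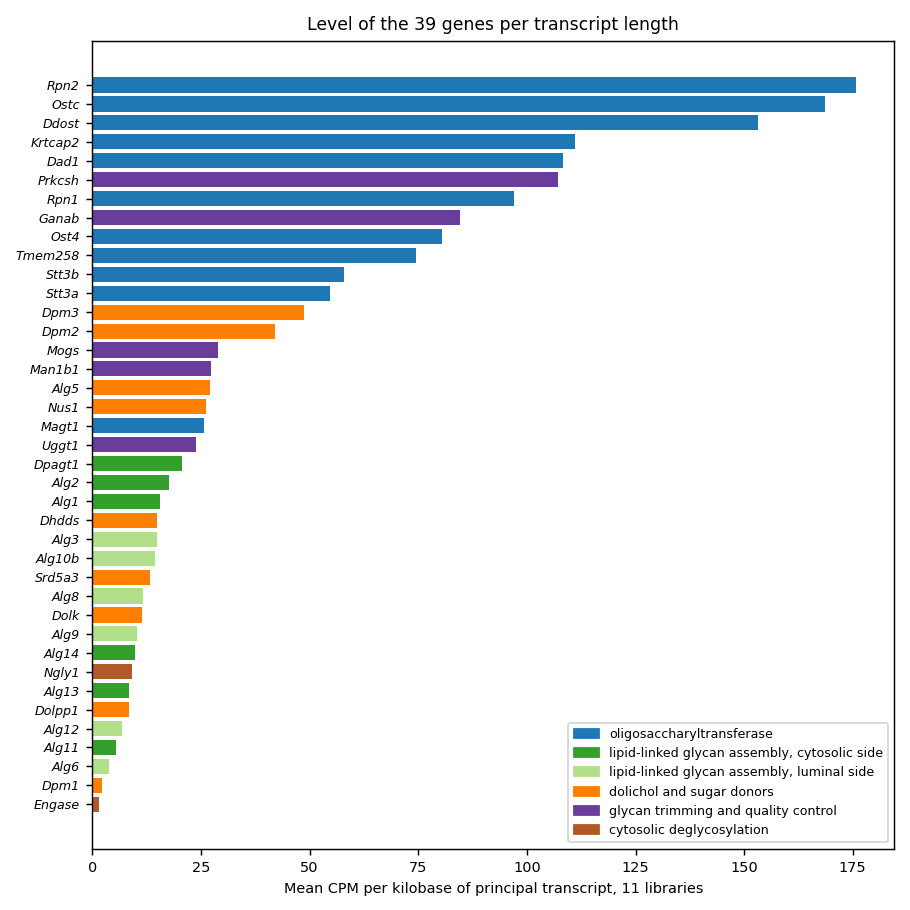
Mean level of each of the 39 genes over the 11 libraries, in CPM per kilobase of the principal transcript, with bars coloured by role. OST subunits hold the 5 longest bars, from 176 CPM per kilobase for Rpn2 to 108 for Dad1, while Engase has the shortest at 1.49.

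Among OST subunits in the plot of levels by role, the catalytic Stt3b (57.8 CPM per kilobase) and Stt3a (54.7 CPM per kilobase) lay below most of their partners, and the oxidoreductase subunit Magt1 lay lowest of the complex with 25.6 CPM per kilobase.

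Promoter sequences are shown for 2 genes that passed the threshold in at least 1 comparison of p212fs with another genotype and for 2 that passed in no comparison. Elements upstream of their start sites can so be read beside the values. They come from the RefSeq promoter table (GRCm38.p6), which held 35 of the 39 genes. Capitals mark GGGCGG (the GC box), CCAAT or CCACG on either strand, and each window is free of annotated exons. Ost4 and Dpm2 are those that passed, Dpm2 against D18N and Trex1-/- but not against WT. Stt3b is a catalytic subunit that did not pass, and Alg12, which did not pass either, alone carried a complete ER stress element. The windows of Ost4, Dpm2 and Stt3b are the 120 bases before the start. That of Alg12 is 69 bases around its element, from 245 to 177 bases before the start. Within 250 upstream bases Stt3b also has CCACG and CCAAT, and Alg12 a GC box, outside the windows shown. The Ost4 window is chr5:30907789-30907908 on the minus strand, Dpm2 chr2:32570738-32570857 on the plus strand, Stt3b chr9:115310469-115310588 on the minus strand and Alg12 chr15:88819495-88819563 on the minus strand.
Ost4: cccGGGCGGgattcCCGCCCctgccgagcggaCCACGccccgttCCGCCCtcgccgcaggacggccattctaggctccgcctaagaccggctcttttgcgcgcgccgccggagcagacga
Dpm2: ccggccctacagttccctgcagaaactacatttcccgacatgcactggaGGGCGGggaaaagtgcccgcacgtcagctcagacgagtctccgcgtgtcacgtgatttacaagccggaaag
Stt3b: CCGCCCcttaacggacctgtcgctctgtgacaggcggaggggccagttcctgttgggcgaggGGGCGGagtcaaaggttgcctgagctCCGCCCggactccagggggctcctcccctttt
Alg12: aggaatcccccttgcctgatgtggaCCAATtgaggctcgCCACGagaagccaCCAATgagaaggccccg

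Within 250 upstream bases, searched on both strands, the GC box GGGCGG was found in 23 of 35 genes (65.7%), against 35.4% of 27025 promoters. CCAAT was found in 15 of 35 (42.9%), against 37.5%, and CCACG, which the ER stress element contains, in 15 of 35 (42.9%), against 31.0%. The full ER stress element, CCAAT and CCACG with 9 bases of any kind between them, was found in Alg12 alone, against 0.130% of promoters. Neither its shorter form, ATTGG and CCACG with 1 base between them, nor TGACGTGG was found. A pattern of interferon-responsive promoters, GAAA and GAAA with 2 bases between them, was found in Stt3a, Ddost, Alg1 and Dpm1 (11.4%), against 3.46% of promoters. These matches are descriptions of letters, not of binding.

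Each pair of genotypes was compared with edgeR's quasi-likelihood test, with Benjamini-Hochberg adjustment over all genes tested and a threshold of 0.05. Log2 fold changes are those of the genotype named first over the second, with an approximate standard error (SE). Over the 6 comparisons, 20 of the 39 genes passed the threshold at least once and 19 in none. The share of all genes that passed at least once was not counted, and single comparisons called 0% to 38.7% of all genes tested. An alternative fit added an offset for exonic length and GC content in each library, and it is given beside a gene where it ended a call. Because the comparisons share libraries, their values are given side by side and are not independent of each other. Stretches of at least 200 bases with at least 90% identity to another annotated gene were found for 10 of the 39 genes, among them Tmem258 with Gm43942 (at most 0.853 CPM), Alg13 with Glt28d2 (at most 3.27 CPM) and Krtcap2 with the overlapping Trim46 (at most 50.6 CPM), so those counts are uncertain.

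In p212fs against WT, Ost4, Tmem258 and Dpm3 rose and Man1b1 fell. These 4 of 39 genes (10.3%) compare with 17.1% of all genes tested, of which 8.13% were higher and 8.95% lower. The median log2 fold change was 0.05 over the 39 genes and -0.02 over all genes. Over the 39 genes it was 0.13, 0.09 and 0.09 without WT replicates 1, 2 and 3, 0.08 and 0.07 without p212fs replicates 1 and 2, 0.10 in a model that included embryo sex and 0.11 with the offset. Libraries of both genotypes did not overlap for 20 of 39 genes (51.3%), against 53.4% of all genes. In the model that included embryo sex, an estimate borrowed from D18N and Trex1-/-, none of the 39 genes passed, against 7.83% of all genes. Without p212fs replicate 1 the count was 0 (2.76% of all genes), without replicate 2 it was 1 (2.86% of all genes), and without WT replicate 1 it was 10 (23.3% of all genes). It was 7 and 8 without Trex1-/- replicates 1 and 2, against 20% and 20.6% of all genes. Without Trex1-/- replicate 3, D18N replicates 2 or 3, or WT replicates 2 or 3 it was 2, against 9.0% to 14.8% of all genes.

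In D18N against WT, the mannosyltransferases Alg2 and Alg11 rose, and Dad1, Alg3, Alg8 and Dpm2 fell. These 6 of 39 genes (15.4%) compare with 25.3% of all genes, of which 12.2% were higher and 13.2% lower. The median log2 fold change was -0.06 over the 39 genes and 0.04 over all genes. Over the 39 genes it was -0.14 without WT replicate 2, -0.04 and -0.12 without D18N replicates 1 and 3, -0.13 in the model that included embryo sex, -0.13 with the offset and -0.11 with no filter on low counts. Libraries did not overlap for 16 of 39 genes (41.0%), against 44.9% of all genes. Dad1 and Alg8 passed whichever library was left out. The count was 2 without any single D18N library or without WT replicate 1 or 3, against 9.88% to 18.1% of all genes. It was 3 without either p212fs library (18.8% and 18.9% of all genes), 10 without Trex1-/- replicate 1 (29.2%) and 13 without WT replicate 2 (31.7%). It was 2 in the model that included embryo sex, against 14.0% of all genes.

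In Trex1-/- against WT, none of the 39 genes passed edgeR's threshold, as none of all genes did (0%). An unadjusted p under 0.05 was found for 11 of 39 genes (28.2%), against 22.7% of all genes. DESeq2 called 2, Dad1 and Dpm2, both lower in Trex1-/-, and limma-voom called 0. Over all genes tested, DESeq2 called 840 (4.94%) and limma-voom 1. Libraries did not overlap for 10 of 39 genes (25.6%), against 22.4% of all genes. Without WT replicate 2, which lay within the Trex1-/- range for 25 of 39 genes (57.5% of all genes), 6 of the 39 genes and 2269 of all genes (13.4%) passed edgeR's threshold. These were Dad1, Tmem258, Krtcap2, Alg14, Alg3 and Dpm2, all lower in Trex1-/-.

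**Figure D2:**
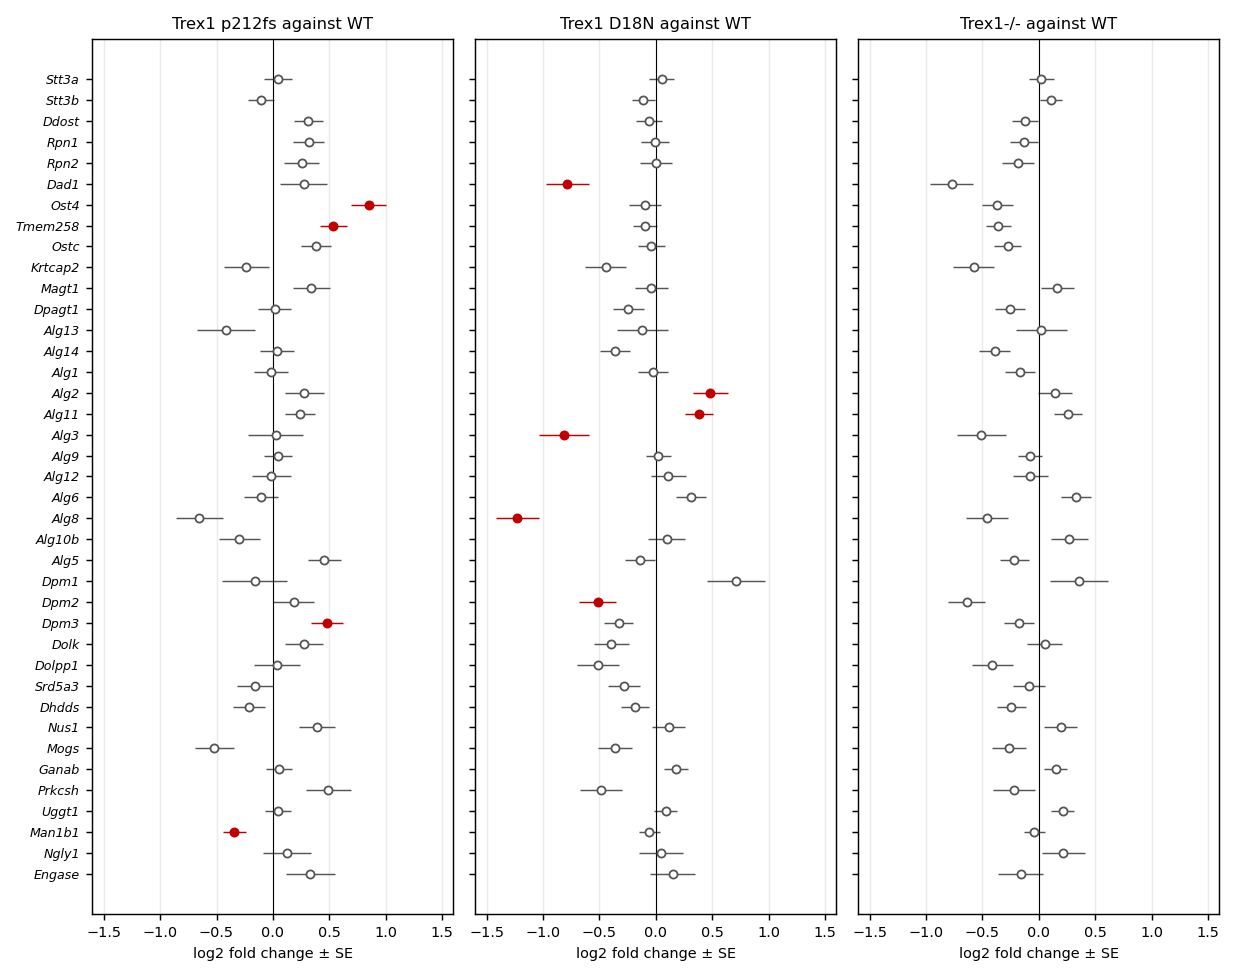
Log2 fold change (x axis, ± SE) of each of the 39 genes in p212fs, D18N and Trex1-/- libraries against WT libraries, with filled red points past an edgeR adjusted p of 0.05. There are 4 filled points for p212fs, 6 for D18N and none for Trex1-/-, and the lowest point of all is Alg8 in D18N at -1.23.

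The mutants were also compared with each other. In p212fs against D18N, 12 genes rose and 3 fell, 15 of 39 (38.5%), against 38.7% of all genes, of which 18.6% were higher and 20.1% lower. Libraries did not overlap for 74.4% of the 39 genes, against 69.8% of all genes. The count was 8 without p212fs replicate 2 (18.1% of all genes), 8 without D18N replicate 1 (33.7%) and 5 without p212fs replicate 1 (14.9%). In p212fs against Trex1-/-, 11 genes rose and 3 fell, 14 of 39 (35.9%), against 32.5% of all genes, of which 15.4% were higher and 17.1% lower. Libraries did not overlap for 59.0% of the 39 genes, against 60.3% of all genes. This count was 4 without p212fs replicate 1 (9.06% of all genes), 6 without p212fs replicate 2 (9.93%) and 9 without Trex1-/- replicate 3 (23.3%). In D18N against Trex1-/-, Alg8 alone fell, 1 of 39 (2.56%), against 6.8% of all genes, of which 3.95% were higher and 2.85% lower. Libraries did not overlap for 10 of 39 genes (25.6%), against 27.7% of all genes. Alg8 did not pass without Trex1-/- replicate 2 or 3, any single D18N or p212fs library, or WT replicate 3, nor with limma-voom. The median log2 fold change over the 39 genes was 0.21 in p212fs against D18N and 0.18 in p212fs against Trex1-/-, against -0.03 and -0.02 over all genes. With the offset the median over the 39 genes was 0.20 against D18N and 0.08 against Trex1-/-.

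The OST transfers the assembled glycan. Its catalytic subunits are encoded by Stt3a, which acts during translocation, and Stt3b, which acts on sites that were skipped. Stt3a had 330.3 and 319 CPM in p212fs, 297, 324 and 357 CPM in D18N, 326.5, 320.1 and 311.5 CPM in Trex1-/- and 296, 335 and 313 CPM in WT. Stt3b had 232 and 227 CPM in p212fs, 222.5, 220.0 and 242.5 CPM in D18N, 261, 267 and 270.5 CPM in Trex1-/- and 229, 262 and 249.9 CPM in WT. The 4 genotypes overlapped for Stt3a, and for Stt3b the Trex1-/- libraries lay above all p212fs and D18N libraries. Neither gene passed the threshold in any of the 6 comparisons, although Stt3a passed in p212fs against D18N and against Trex1-/- once the offset was added. The ratio of Stt3a to Stt3b per kilobase was 1.02 ± 0.00775 in p212fs (SD, n = 2), 1.03 ± 0.0576 in D18N, 0.864 ± 0.0366 in Trex1-/- and 0.918 ± 0.0161 in WT (SD, n = 3 each). It was above the highest WT library in all p212fs and D18N libraries and below the lowest WT library in 2 of 3 Trex1-/- libraries. It is given as a description with no test, and was not computed with the offset. In D18N against WT, Stt3a and Stt3b were 0.05 and -0.11 on the log2 scale without the offset and -0.26 and -0.12 with it. Their order thus turned for D18N. With the offset they were 0.14 and -0.13 in p212fs against WT and -0.30 and 0.12 in Trex1-/- against WT, with the order kept.

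The small subunits of the OST differed most. Ost4, a single-helix subunit that stabilises the complex, is a minus-strand gene of chromosome 5 (30905885 to 30907788, GRCm38). Ost4 had 80.2 and 76.5 CPM in p212fs, 34.4, 39.2 and 48.4 CPM in D18N, 31.7, 34.4 and 35.1 CPM in Trex1-/- and 49.3, 39.1 and 42.1 CPM in WT. Both p212fs libraries lay above every other library. Its log2 fold change in p212fs was 0.85 ± 0.15 (SE) against WT (edgeR adjusted p = 0.00513), 0.94 ± 0.15 against D18N (edgeR adjusted p = 0.00128) and 1.22 ± 0.15 against Trex1-/- (edgeR adjusted p = 0.000723). Of its exonic bases, 53.2% overlap exons of Agbl5 on the other strand, and the strand setting of the counting was not given in the sources used here, so its count is uncertain. Agbl5 itself had 10.7 and 13.4 CPM in p212fs, 15.0 to 16.8 CPM in D18N, 12.3 to 14.3 CPM in Trex1-/- and 10.8 to 13.7 CPM in WT.

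Tmem258, another small membrane subunit, had 64.6 and 65.5 CPM in p212fs, 39.9, 45.8 and 40.3 CPM in D18N, 33.2, 36.5 and 35.4 CPM in Trex1-/- and 47.5, 40.5 and 46.8 CPM in WT. Again the p212fs libraries lay above all others, and the Trex1-/- libraries were the lowest. Its log2 fold change in p212fs was 0.53 ± 0.12 against WT (edgeR adjusted p = 0.0134), 0.63 ± 0.12 against D18N (edgeR adjusted p = 0.00274) and 0.89 ± 0.12 against Trex1-/- (edgeR adjusted p = 0.000875). With the offset, Tmem258 was 0.32 against WT (edgeR adjusted p = 0.0595) and 0.26 against D18N (edgeR adjusted p = 0.078), both no longer past the threshold, and 0.45 against Trex1-/- (edgeR adjusted p = 0.0117). In Trex1-/- against WT its log2 fold change was -0.36 ± 0.11, which did not pass (edgeR adjusted p = 0.136).

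Dad1, a subunit without which the complex falls apart, had 141 and 142 CPM in p212fs, 58.95, 71.2 and 74.0 CPM in D18N, 66.5, 67.5 and 72.0 CPM in Trex1-/- and 155, 82.4 and 114.5 CPM in WT. The D18N and Trex1-/- libraries lay below every p212fs and WT library, and the p212fs libraries lay within the WT range. Its log2 fold change was -0.79 ± 0.19 in D18N against WT (edgeR adjusted p = 0.0141) and -0.77 ± 0.19 in Trex1-/- against WT, where it did not pass (edgeR adjusted p = 0.125). In p212fs it was 1.06 ± 0.21 against D18N (edgeR adjusted p = 0.00302), 1.05 ± 0.21 against Trex1-/- (edgeR adjusted p = 0.00417) and 0.27 ± 0.21 against WT (edgeR adjusted p = 0.386). In D18N against Trex1-/- it was -0.01 ± 0.19 (edgeR adjusted p = 0.978).

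Ostc, a subunit that links the Stt3a complex to the protein-conducting channel, had 225 and 245 CPM in p212fs, 154.5, 179 and 191 CPM in D18N, 152, 147 and 146.5 CPM in Trex1-/- and 199.5, 158.5 and 182 CPM in WT. The p212fs libraries lay above all others, by a log2 fold change of 0.42 ± 0.13 against D18N (edgeR adjusted p = 0.0259) and 0.66 ± 0.13 against Trex1-/- (edgeR adjusted p = 0.00439). With the offset it was 0.20 against D18N and did not pass (edgeR adjusted p = 0.199), and 0.42 against Trex1-/-. Against WT it was 0.38 ± 0.13 and did not pass (edgeR adjusted p = 0.0684). Ddost, which anchors the complex, had 400.3 and 399.0 CPM in p212fs, 293, 327 and 303 CPM in D18N, 289, 311 and 284.5 CPM in Trex1-/- and 354, 278 and 332 CPM in WT. It rose in p212fs against D18N by 0.38 ± 0.13 (edgeR adjusted p = 0.0394) and against Trex1-/- by 0.44 ± 0.13 (edgeR adjusted p = 0.0246), and p212fs libraries again lay above all others. Neither call held with the offset, at 0.02 and 0.04.

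Rpn1, ribophorin I, which presents substrates to the catalytic subunit, had 431 and 432 CPM in p212fs, 306, 366 and 362 CPM in D18N, 289, 349.5 and 309 CPM in Trex1-/- and 371, 310.5 and 356.5 CPM in WT. It rose in p212fs against Trex1-/- by 0.45 ± 0.14 (edgeR adjusted p = 0.0279). Rpn2 had 579 and 573 CPM in p212fs, 433, 524.5 and 494 CPM in D18N, 399, 461 and 418 CPM in Trex1-/- and 568, 399.7 and 480.3 CPM in WT. Its p212fs libraries lay above all others, but no comparison passed, and in p212fs against Trex1-/- its log2 fold change was 0.44 ± 0.16 (edgeR adjusted p = 0.0524). Krtcap2, another partner of Stt3a, had 135 and 138 CPM in p212fs, 113, 119 and 122 CPM in D18N, 97.4, 118 and 108 CPM in Trex1-/- and 208, 113.5 and 161 CPM in WT. The spread between WT libraries covered the p212fs and D18N libraries except 1 D18N library, and no comparison passed. Magt1, the oxidoreductase of the Stt3b complex, had 121 and 128 CPM in p212fs, 91.2, 84.3 and 111 CPM in D18N, 127, 90.7 and 112 CPM in Trex1-/- and 88.8, 107 and 98.7 CPM in WT, and passed in none.

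**Figure D3:**
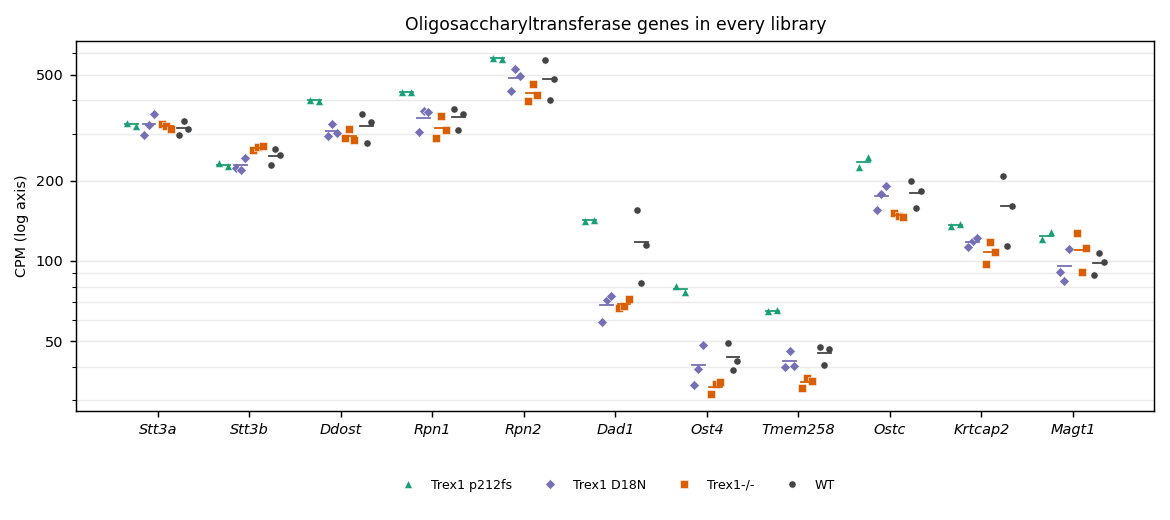
CPM (log axis) of the 11 OST genes in each library, grouped from left to right as p212fs, D18N, Trex1-/- and WT, with a short bar at each mean. For Ost4 the p212fs points, at 80.2 and 76.5 CPM, lie above the highest other point (49.3 CPM, WT), whereas Stt3a points of all genotypes overlap between 296 and 357 CPM.

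Summed over the 11 OST genes in the plot, the level was 2742 ± 3.17 CPM in p212fs (SD, n = 2), 2229 ± 162 CPM in D18N, 2125 ± 68.6 CPM in Trex1-/- and 2357 ± 221 CPM in WT (SD, n = 3 each). The p212fs sums, 2740.0 and 2745 CPM, were the highest, and the WT libraries ran from 2126 to 2567 CPM. The median log2 fold change over the 11 genes was 0.31 in p212fs against WT, where 2 of 11 rose (18.2%, against 8.13% of all genes). It was 0.38 against D18N, where 5 rose (45.5%, against 18.6%), and 0.44 against Trex1-/-, where 6 rose (54.5%, against 15.4%). No OST gene fell in those comparisons. With the offset the medians were 0.22 against WT, 0.26 against D18N and 0.42 against Trex1-/-. The OST genes called with it were 1, 4 and 6 in that order, against 16.9%, 33.4% and 24.6% of all genes. Of the rises without it, only Ost4 held against WT, and only Dad1 and Ost4 against D18N. Stt3a and Magt1 passed against D18N with the offset alone. Against Trex1-/-, Ddost no longer passed and Stt3a did. In the model that included embryo sex, no OST gene passed against WT.

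Assembly of the glycan on dolichol was followed through 12 genes, 6 acting on the cytosolic and 6 on the luminal side. Alg2, which adds mannoses on the cytosolic side, had 54.7 and 55.0 CPM in p212fs, 66.0, 61.7 and 62.0 CPM in D18N, 58.2, 43.4 and 48.2 CPM in Trex1-/- and 35.0, 49.7 and 51.0 CPM in WT. All D18N libraries lay above all others. The log2 fold change in D18N against WT was 0.48 ± 0.15 (edgeR adjusted p = 0.0404). Alg11, which adds the last mannoses before the glycan turns to the lumen, had 27.3 and 27.0 CPM in p212fs, 28.9, 28.3 and 32.5 CPM in D18N, 29.6, 28.8 and 24.0 CPM in Trex1-/- and 21.7, 24.4 and 22.9 CPM in WT. In D18N it rose by 0.38 ± 0.12 (edgeR adjusted p = 0.0422) against WT, without overlap, and with the offset it was 0.26 and did not pass (edgeR adjusted p = 0.0987).

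Alg8, which adds the second glucose in the lumen, is a plus-strand gene of chromosome 7 (97371606 to 97392185, GRCm38) and had the widest range of the 39 genes. It had 20.2 and 23.1 CPM in p212fs, 13.8, 13.6 and 16.2 CPM in D18N, 18.3, 28.5 and 27.3 CPM in Trex1-/- and 40.9, 29.6 and 31.5 CPM in WT. D18N libraries lay below all others and WT libraries above all others. Alg8 fell in D18N by 1.23 ± 0.19 on the log2 scale against WT (edgeR adjusted p = 0.00221) and by 0.76 ± 0.19 against Trex1-/- (edgeR adjusted p = 0.0346). In p212fs it was 0.57 ± 0.21 higher than in D18N (edgeR adjusted p = 0.0474), and -0.65 ± 0.21 against WT, which did not pass (edgeR adjusted p = 0.0553). With the offset these were 0.36, which did not pass (edgeR adjusted p = 0.169), and -0.80, which did (edgeR adjusted p = 0.0197). The fall in D18N against WT passed in all 19 alternatives, with log2 fold changes from -1.34 to -1.08.

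Alg3, which adds the first luminal mannose, had 27.6 and 27.1 CPM in p212fs, 13.6, 16.7 and 15.7 CPM in D18N, 13.9, 22.7 and 20.1 CPM in Trex1-/- and 34.3, 19.4 and 27.0 CPM in WT. D18N libraries lay below all p212fs and WT libraries. The log2 fold change was -0.81 ± 0.22 in D18N against WT (edgeR adjusted p = 0.0227) and 0.84 ± 0.24 in p212fs against D18N (edgeR adjusted p = 0.0187), which with the offset was 0.45 and did not pass (edgeR adjusted p = 0.0956). Alg6, which adds the first glucose, had 9.49 and 9.97 CPM in p212fs, 12.4 to 14.2 CPM in D18N, 12.6 to 13.9 CPM in Trex1-/- and 10.3 to 10.7 CPM in WT. It fell in p212fs against D18N by 0.42 ± 0.15 (edgeR adjusted p = 0.0492) and against Trex1-/- by 0.43 ± 0.15 (edgeR adjusted p = 0.0481). With the offset, Alg6 was -0.04 against D18N (edgeR adjusted p = 0.885) and -0.04 against Trex1-/- (edgeR adjusted p = 0.881), and the calls held in 3 and 5 of 19 alternatives. Alg10b, for the last glucose, ran from 70.0 to 124 CPM over all libraries and fell in p212fs against Trex1-/- by 0.57 ± 0.18 (edgeR adjusted p = 0.0347). Alg14, which with Alg13 adds the second N-acetylglucosamine, rose in the same comparison by 0.43 ± 0.15 (edgeR adjusted p = 0.048). With the offset neither passed, Alg10b at -0.32 (edgeR adjusted p = 0.0886) and Alg14 at 0.13 (edgeR adjusted p = 0.508).

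The other 5 assembly genes passed in no comparison. Dpagt1, which attaches the first sugar to dolichol phosphate, ran from 36.4 to 58.0 CPM over the 11 libraries, Alg13 from 11.2 to 21.8 CPM, and the first mannosyltransferase Alg1 from 23.1 to 32.2 CPM. The luminal mannosyltransferases Alg9 and Alg12 ran from 25.7 to 32.1 CPM and from 12.7 to 18.7 CPM. The 6 cytosolic-side genes summed to 196 ± 0.0614 CPM in p212fs (SD, n = 2), 196 ± 5.60 CPM in D18N, 178 ± 4.54 CPM in Trex1-/- and 186 ± 3.40 CPM in WT (SD, n = 3 each). The 6 luminal-side genes summed to 178 ± 5.28 CPM in p212fs, 186 ± 6.98 CPM in D18N, 208.5 ± 4.85 CPM in Trex1-/- and 207 ± 7.81 CPM in WT.

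Dolichol and its activated sugars are supplied by 9 of the genes. Dpm1 encodes the catalytic subunit of dolichol-phosphate mannose synthase, and Dpm2 and Dpm3 its membrane partners. Dpm2 had 50.3 and 47.6 CPM in p212fs, 28.8, 31.0 and 30.7 CPM in D18N, 27.1, 30.4 and 25.4 CPM in Trex1-/- and 52.1, 31.4 and 45.9 CPM in WT. D18N and Trex1-/- libraries lay below all WT and p212fs libraries. Its log2 fold change was -0.52 ± 0.17 in D18N against WT (edgeR adjusted p = 0.041), 0.70 ± 0.18 in p212fs against D18N (edgeR adjusted p = 0.0117) and 0.82 ± 0.18 in p212fs against Trex1-/- (edgeR adjusted p = 0.00682). With the offset Dpm2 was -0.32 in D18N against WT (edgeR adjusted p = 0.0709) and 0.35 in p212fs against D18N (edgeR adjusted p = 0.0661), and neither passed. In p212fs against Trex1-/- it was 0.41 with the offset. In Trex1-/- against WT it was -0.64 ± 0.17 without it and did not pass (edgeR adjusted p = 0.126).

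Dpm3 had 28.7 and 27.1 CPM in p212fs, 15.8, 15.7 and 16.3 CPM in D18N, 19.3, 16.6 and 17.2 CPM in Trex1-/- and 22.2, 17.4 and 20.5 CPM in WT. The p212fs libraries were the highest and the D18N libraries the lowest. It rose in p212fs by 0.48 ± 0.14 against WT (edgeR adjusted p = 0.0419), 0.81 ± 0.14 against D18N (edgeR adjusted p = 0.00194) and 0.66 ± 0.14 against Trex1-/- (edgeR adjusted p = 0.00655). With the offset Dpm3 passed against D18N alone, at 0.50 (edgeR adjusted p = 0.0124), and was 0.35 against WT (edgeR adjusted p = 0.0804). Dpm1 stood the other way and was scarce, with 3.38 and 4.05 CPM in p212fs, 6.82, 7.62 and 6.01 CPM in D18N, 5.27, 5.83 and 4.88 CPM in Trex1-/- and 2.71, 5.50 and 4.29 CPM in WT. It fell in p212fs against D18N by 0.87 ± 0.29 (edgeR adjusted p = 0.0338), a call that the offset ended (-0.60, edgeR adjusted p = 0.0739), and 12.0% of its exonic bases overlap Gm20716 on the same strand, which had 0 counts.

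Alg5, which makes dolichol-phosphate glucose, had 55.8 and 52.9 CPM in p212fs, 34.8, 35.5 and 37.6 CPM in D18N, 34.7, 35.0 and 32.5 CPM in Trex1-/- and 48.0, 34.3 and 36.6 CPM in WT. The p212fs libraries lay above all others. Alg5 rose in p212fs against D18N by 0.60 ± 0.14 (edgeR adjusted p = 0.00843) and against Trex1-/- by 0.67 ± 0.14 (edgeR adjusted p = 0.00599), and was 0.46 ± 0.14 against WT (edgeR adjusted p = 0.0508). Dolk, dolichol kinase, had 31.2 and 27.4 CPM in p212fs, 20.8, 16.5 and 17.9 CPM in D18N, 30.5, 21.4 and 23.3 CPM in Trex1-/- and 23.3, 23.9 and 25.4 CPM in WT. It rose in p212fs against D18N by 0.67 ± 0.17 (edgeR adjusted p = 0.0105), and with the offset was 0.33 and did not pass (edgeR adjusted p = 0.194). Dolpp1, which recycles dolichol pyrophosphate (13.7 to 24.3 CPM), the polyprenol reductase Srd5a3 (18.7 to 28.8 CPM) and the prenyltransferase pair Dhdds (42.5 to 61.5 CPM) and Nus1 (103 to 157 CPM) passed in no comparison.

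Trimming and folding control in the ER involve 5 genes. Prkcsh had 342 and 291 CPM in p212fs, 166.5, 149.6 and 166 CPM in D18N, 149.8, 226 and 203 CPM in Trex1-/- and 279, 176 and 220.1 CPM in WT. The p212fs libraries were the highest, with WT replicate 1 next below them. Prkcsh rose in p212fs against D18N by 0.98 ± 0.20 (edgeR adjusted p = 0.00407) and against Trex1-/- by 0.71 ± 0.20 (edgeR adjusted p = 0.0207), and was 0.49 ± 0.20 against WT (edgeR adjusted p = 0.116). Ganab, the catalytic partner of Prkcsh in glucosidase II, ran from 280.0 to 353 CPM over all libraries and passed in none. In p212fs against D18N its log2 fold change was -0.12 ± 0.11 (edgeR adjusted p = 0.409), and the difference between the 2 genes was not tested.

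Man1b1, the ER mannosidase that marks slowly folding glycoproteins, had 87.1 and 84.1 CPM in p212fs, 107, 105 and 102 CPM in D18N, 101, 111 and 106 CPM in Trex1-/- and 109, 106 and 111 CPM in WT. The p212fs libraries lay below all others, while the other genotypes overlapped. Man1b1 fell in p212fs by 0.34 ± 0.10 against WT (edgeR adjusted p = 0.0401), 0.29 ± 0.10 against D18N (edgeR adjusted p = 0.0435) and 0.30 ± 0.10 against Trex1-/- (edgeR adjusted p = 0.0399). With the offset the fall against WT alone passed, and the values were -0.20 against D18N (edgeR adjusted p = 0.0983) and -0.23 against Trex1-/- (edgeR adjusted p = 0.0744). Mogs, glucosidase I, ran from 61.9 to 111 CPM and Uggt1, which re-glucosylates misfolded glycoproteins, from 179 to 236.5 CPM. Neither passed. The cytosolic deglycosylating enzymes Ngly1 (20.8 to 37.2 CPM) and Engase (4.10 to 7.47 CPM) also passed in none.

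**Figure D4:**
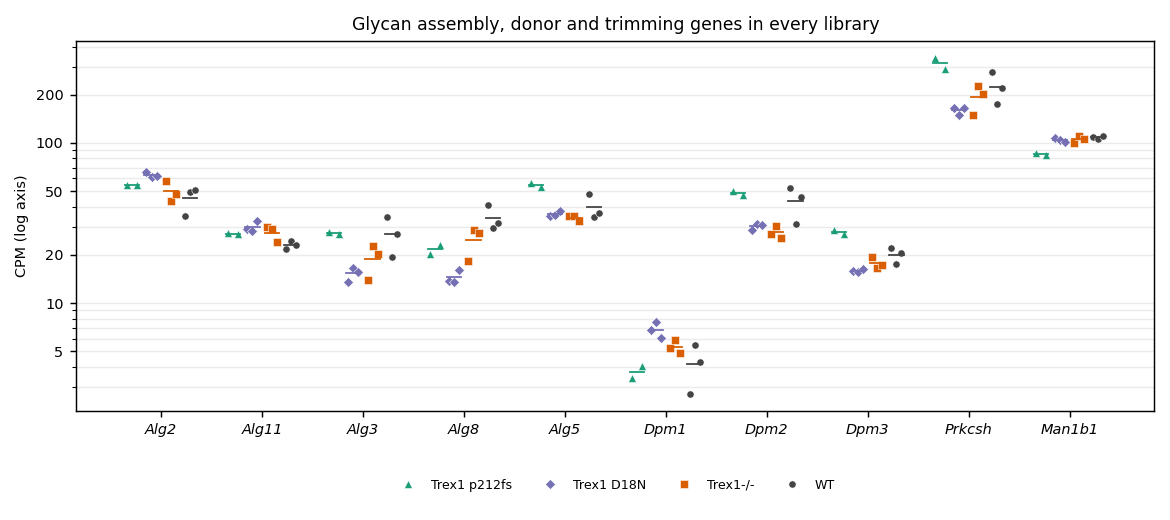
CPM (log axis) of 10 assembly, donor and trimming genes in each library, grouped from left to right as p212fs, D18N, Trex1-/- and WT, with a short bar at each mean. Alg8 points of D18N, 13.6 to 16.2 CPM, lie below all others, and Man1b1 points of p212fs, at 87.1 and 84.1 CPM, lie just below the rest.

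The plot of the assembly, donor and trimming genes shows Dpm1, whose count is uncertain, moving against Dpm2 and Dpm3: it was higher in D18N than in p212fs, while they were lower.

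Log2 fold changes went with exonic length, the union of a gene's annotated exons, across all genes, in comparisons with and without p212fs libraries. In p212fs against Trex1-/- the median log2 fold change was 0.40 for genes with under 1500 exonic bases and -0.35 for those with 5000 or more. Against D18N it was 0.26 and -0.33, and against WT 0.10 and -0.18. The order was turned in D18N against WT, with -0.14 for the shorter and 0.17 for the longer genes, and in Trex1-/- against WT, with -0.26 and 0.18. In D18N against Trex1-/- it was 0.08 and -0.03. By this union only 2 of the 39 genes have under 1500 exonic bases, Ost4 and Dpm3, and 10 have 5000 or more. Principal transcripts are shorter than the union for many genes. Those of Dad1 (878 bases), Tmem258 (606), Ostc (1067), Krtcap2 (1172), Dpm2 (869), Alg3 (1451) and Alg5 (1471) are also under 1500 bases. With the offset, 11 of 39 genes passed in p212fs against Trex1-/-, against 24.6% of all genes, 8 of them as without it (Rpn1, Dad1, Ost4, Tmem258, Ostc, Alg5, Dpm2 and Prkcsh). In p212fs against D18N 8 passed, against 33.4% of all genes, 5 of them as without it (Dad1, Ost4, Alg5, Dpm3 and Prkcsh).

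**Figure D5:**
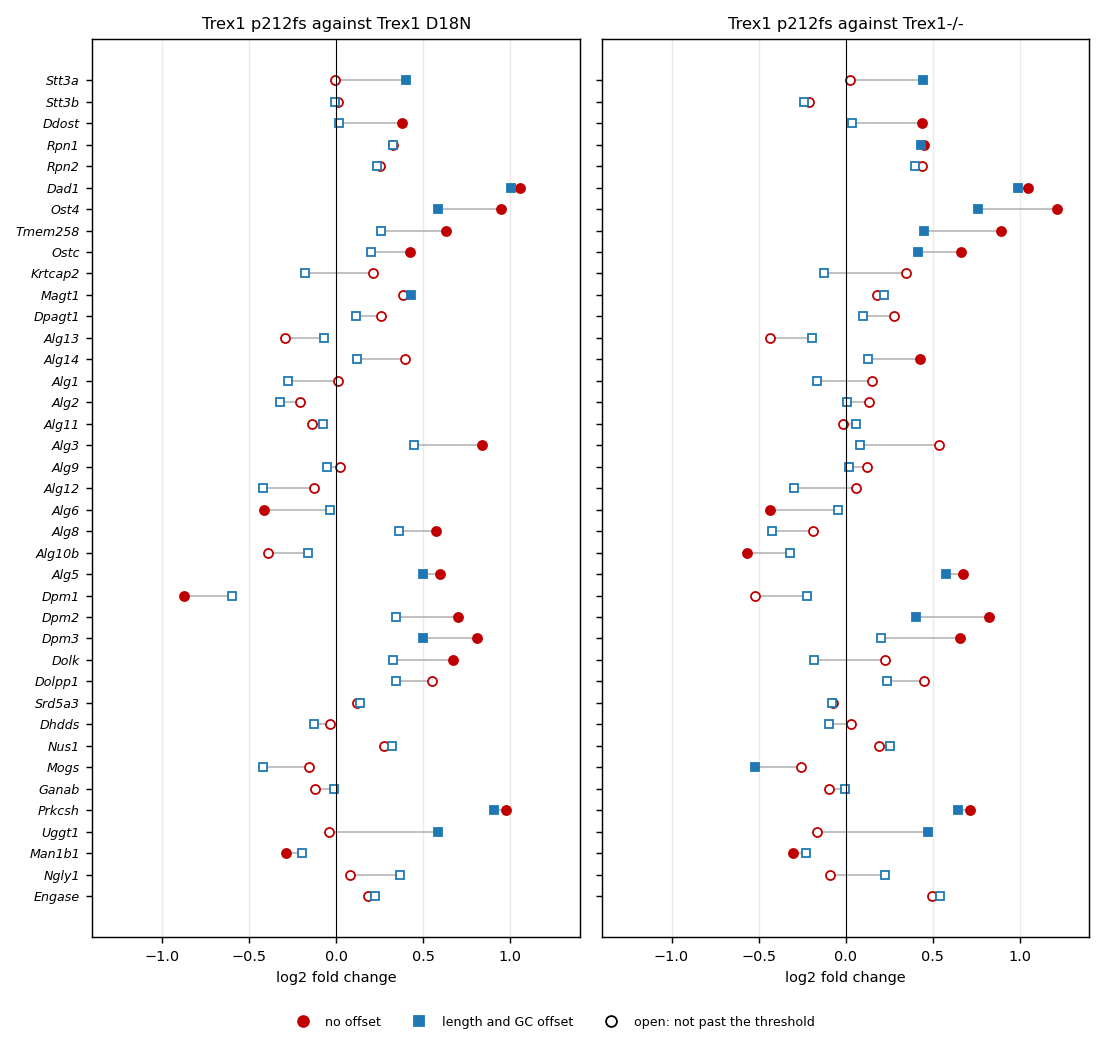
Log2 fold change of each of the 39 genes in p212fs against D18N and against Trex1-/-, without (red circles) and with (blue squares) an offset for exonic length and GC content, with filled symbols past an edgeR adjusted p of 0.05. Against D18N, Dad1 is at 1.06 without and 1.01 with the offset, and Ddost at 0.38 and 0.02. Exonic length is the union of annotated exons.

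The paired symbols show how far each value moved with the offset. As length it takes the union of exons, 3916 bases for Dad1, 3728 for Alg5 and 4275 for Prkcsh. Their principal transcripts have 878, 1471 and 2012 bases, while Ddost has 2120 by both measures. Dependence on the length of the principal transcript was not tested. Dad1 was 0.99 with the offset in p212fs against Trex1-/- (edgeR adjusted p = 0.00736) and Ost4 0.76 (edgeR adjusted p = 0.00398), while Ddost was 0.04 (edgeR adjusted p = 0.834) and Dpm3 0.20 (edgeR adjusted p = 0.253). Stt3a, at 0.02 without the offset, passed with it at 0.45 (edgeR adjusted p = 0.0219), and so did it against D18N at 0.40 (edgeR adjusted p = 0.0254). Uggt1, the gene with the longest exonic sequence of the 39, passed with it at 0.47 (edgeR adjusted p = 0.0103) against Trex1-/- and 0.58 (edgeR adjusted p = 0.00272) against D18N. In p212fs against WT, 5 genes passed with it, against 16.9% of all genes. Ost4, at 0.65 (edgeR adjusted p = 0.0103), and Man1b1, at -0.27 (edgeR adjusted p = 0.0499), passed as without it, and Tmem258 and Dpm3 no longer did. Alg8, Mogs at -0.59 (edgeR adjusted p = 0.0254) and Uggt1 at 0.36 (edgeR adjusted p = 0.0411) passed with it alone. In D18N against WT, 4 genes passed with it, Dad1, Alg2, Alg3 and Alg8, against 25.4% of all genes, and Alg11 and Dpm2 no longer did.

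Neighbouring steps of the same pathway were followed by lists. The lists were chosen with earlier results of these data known, so their shares are descriptions and no independent support. List counts come from the main fit alone and were not repeated in the alternatives. Embryo sex and genotype cannot be told apart in p212fs against WT here either. Of 14 lectin chaperone and glycoprotein degradation genes, 7 rose in p212fs against WT (50%, against 8.13% of all genes) and none fell, with a median log2 fold change of 0.42. Among them Pdia3, an oxidoreductase that works with the lectin chaperones, was 0.87 ± 0.15, Calr, which encodes calreticulin, 0.84 ± 0.15 and Erlec1, an ER lectin, 0.62 ± 0.12. Of the 14, 6 rose in D18N against WT (42.9%, against 12.2% of all genes), led by Sel1l (0.51 ± 0.15), a scaffold of ER-associated degradation, and Uggt2 (0.62 ± 0.19), with a median of 0.36.

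Lysosomal and cytosolic glycan breakdown genes, 11 in all, had 7 higher in p212fs against WT (63.6%, against 8.13% of all genes), with a median of 0.75. Aga, which cuts the glycan-asparagine bond, was 1.45 ± 0.12 higher, the fucosidase Fuca1 0.94 ± 0.12 and the protective protein Ctsa 1.02 ± 0.15. Of the 11, 2 rose in D18N against WT (18.2%, against 12.2% of all genes), the mannosidase Manba (0.84 ± 0.12) and the galactosidase Glb1 (0.55 ± 0.15). Of 12 genes for sugar nucleotides and flipping, 4 rose in p212fs against WT (33.3%, against 8.13% of all genes), led by the phosphomannomutase Pmm1 (0.86 ± 0.19). Of these 12, 2 rose in D18N against WT, Gfpt1 (0.90 ± 0.21) and Pgm3 (0.62 ± 0.16) of the hexosamine pathway, and 3 fell. These shares, 16.7% and 25%, compare with 12.2% of all genes higher and 13.2% lower. The 3 that fell were the phosphomannomutases Pmm1 (-0.51 ± 0.17) and Pmm2 (-0.47 ± 0.15) and Mpdu1 (-0.48 ± 0.15), which is needed for the use of dolichol-linked mannose and glucose.

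Genes of the translocon and signal peptidase, which sit beside the OST in the membrane, numbered 15. Of these, 4 rose in p212fs against WT (26.7%, against 8.13% of all genes), among them Sec61g (0.79 ± 0.17) and Sec61b (0.63 ± 0.15), the small subunits of the channel, with a median of 0.30. Ssr2 (-0.49 ± 0.13) and Spcs3 (-0.37 ± 0.11) fell in D18N against WT, 13.3% of the list, against 13.2% of all genes. Of 15 unfolded protein response genes, 6 rose in p212fs against WT (40%, against 8.13% of all genes) and 2 fell (13.3%, against 8.95%), with Pdia4 (0.69 ± 0.15) and Dnajb9 (0.67 ± 0.16) higher and Atf4 (-0.91 ± 0.19) lower. The 3 that fell in D18N against WT were Manf (-0.67 ± 0.19), Dnajb11 (-0.46 ± 0.15) and Creld2 (-0.56 ± 0.19), 20% of the list, against 13.2% of all genes. Golgi glycan processing, 18 genes, had 1 higher and 3 lower in p212fs against WT (5.56% and 16.7%, against 8.13% and 8.95% of all genes), with the mannosidases Man2a1 (-1.42 ± 0.28) and Man2a2 (-0.88 ± 0.17) lower and the UDP-galactose transporter Slc35a2 (0.55 ± 0.12) higher. In D18N against WT 4 rose (22.2%, against 12.2% of all genes), among them Man2a2 (0.63 ± 0.15) and Mgat3 (0.65 ± 0.17). In p212fs against D18N, Man2a2 fell by 1.51 ± 0.17 (edgeR adjusted p = 0.000218).

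Among 16 genes that use dolichol-phosphate mannose outside N-glycosylation, none rose or fell in p212fs against WT, and Pigt (-0.55 ± 0.13) and Gpaa1 (-0.76 ± 0.18), which attach glycolipid anchors, fell in D18N against WT (12.5%, against 13.2% of all genes). In Trex1-/- against WT no gene of these lists passed edgeR's test. Among 10 cell cycle genes, 9 fell in D18N against WT and 1 in p212fs against WT, and their sum was 1081 to 1175 CPM in p212fs, 523 to 1081 CPM in D18N, 950.1 to 1967 CPM in Trex1-/- and 1719 to 1960.0 CPM in WT. All 10 skeletal muscle markers rose in D18N against WT, and all 10 macrophage markers fell. Of the 5 neural and glial markers, 3 fell in p212fs against WT and 4 in D18N against WT, and they summed to 74.97 to 95.8 CPM in p212fs, 41.2 to 79.2 CPM in D18N, 152 to 160 CPM in Trex1-/- and 137 to 248.7 CPM in WT. Of the 10 fibroblast markers, 6 fell in p212fs against WT, and 3 rose and 2 fell in D18N against WT. In p212fs against WT, 3 macrophage markers fell and 2 skeletal muscle markers rose. The 5 endothelial markers had 1 lower in p212fs and 2 higher in D18N against WT, and the 5 epithelial markers 1 lower in each. The part of these markers, of cell cycle genes and of fibroblast markers in the results for the glycosylation genes was not tested.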

How the data were processed

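RNA-seq was measured in 11 libraries of MEFs. Values in the deposited table are whole-number read counts for each gene with unequal library totals, so no scaling by the authors was seen. The submitters' processing notes name GRCm39 as the build and fastp, HISAT2 and featureCounts as tools. Versions, annotation, strand setting and the handling of overlaps are not given in the sources used here. Of 55578 lines, 1654 without a gene name (0.0804% to 0.129% of a library's counts) were left out of library sizes and tests, and 1597 repeated a name. Per the labels' protocols, RNA came from an RNeasy kit and libraries from a SMARTer mRNA-seq kit.

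Counts were tested with edgeR 4.0.16 (R 4.3.3): filterByExpr with a minimum count of 10, TMM scaling and robust quasi-likelihood fits with genotype alone as a term, fitted to all 11 libraries. The group of 2 libraries thus shared the estimate of the spread (biological coefficient of variation 22.5%). P-values were adjusted over 16990 genes by the Benjamini-Hochberg method. A standard error was taken as the size of the log2 fold change divided by the root of its F statistic. CPM uses the TMM-scaled total of named genes. Library totals limit the precision of scarce genes, and the labels mention no molecular identifiers. The fit was tested on simulated counts.

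Lengths, overlaps and coordinates came from GENCODE M21 (GRCm38), not the submitters' build. Length per kilobase was that of the shortest principal transcript, and copies were searched with BLAST 2.17.0. Alternatives were RLE size factors, no filter, DESeq2 1.42.0, limma-voom (limma 3.58.1), fits of only both genotypes, a replicate block, embryo sex as a further term, a length and GC offset, and each library left out in turn. The members and the gene lists were chosen with earlier results of these data known. All 40 members are accounted for by role. Values in every library are given for those past the threshold against WT, the 5 highest per length, the catalytic and oxidoreductase subunits and up to 4 that passed only between mutants in a comparison, and for some others chosen after their values were seen. Genes outside the 40 are named from the lists, at most 3 of the smallest p per list.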

Additional observations from a re-analysis of the deposited data

How the results depend on the processing

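Of 40 calls of a gene in a comparison, 9 held in every alternative and 10 whichever library was left out; none reversed, and 535 of 760 alternatives kept the call. In Trex1-/- against WT, 0 genes passed as reported, 2 with no filter and 2 with DESeq2. Over all genes that comparison gave 0, 261 with no filter, 840 with DESeq2, 380 with the sex term and 1 with limma-voom. In D18N against WT, 6 passed (25.3% of all genes), 3 with the replicate block (22.4%) and 2 with the sex term (14%). In p212fs against WT, 4 passed (17.1% of all genes), 7 with DESeq2 (22%), 2 with the replicate block (11.6%) and 0 with the sex term (7.83%). In D18N against Trex1-/-, 1 passed (6.8% of all genes). It was 0 with limma-voom (6.36%), with only both genotypes fitted (2.66%) or with the replicate block (5.19%). In p212fs against D18N, 15 passed (38.7% of all genes), 9 with the sex term (37%) and 8 with the length and GC offset (33.4%). The cause was not tested. Shares of all genes also moved when a library was left out. They ran from 9.88% to 31.7% in D18N against WT, 0% to 13.4% in Trex1-/- against WT and 2.41% to 11.3% in D18N against Trex1-/-. In fits that kept both p212fs libraries, shares of all genes in p212fs ran from 9.0% to 23.3% against WT, 29.1% to 42.6% against D18N and 23.3% to 36.9% against Trex1-/-. Leaving out each library gave 0 to 10 genes in p212fs against WT, 2 to 13 in D18N against WT and 0 to 6 in Trex1-/- against WT. Between mutants it gave 5 to 18 in p212fs against D18N, 4 to 15 in p212fs against Trex1-/- and 0 to 1 in D18N against Trex1-/-.

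Same-numbered libraries of different genotypes correlated between -0.21 and 0.14 in their deviations from the group means, over 0.1 in 2 of 15 pairs. Pairs with different numbers ran from -0.21 to 0.23. Deviations within such small groups are tied to each other, so whether the replicate numbers mark a pairing cannot be told from these values. With the replicate block, p212fs against D18N gave 12 genes (34.9% of all genes), p212fs against Trex1-/- 10 (27.7%) and Trex1-/- against WT 0 (0%).

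The Stt3a to Stt3b ratio depends on length. With plain CPM it was 1.41 in p212fs, 1.43 in D18N, 1.20 in Trex1-/- and 1.28 in WT, and with the union of exons, chosen after seeing the data, 0.667, 0.673, 0.567 and 0.602 in the same order. Both alternatives scale every library alike, so they could not change the order of the genotypes. The ratio of Tusc3 to Magt1 was not run, because Tusc3 was not analysed here. With 2 p212fs libraries, leaving out 1 left a lone sample assumed to vary like the other groups. Genes near 5 CPM, such as Dpm1 and Engase, are limited by depth, and the count of Dpm1 is uncertain for its overlap with Gm20716 too.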

Other observations

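The median coefficient of variation between libraries of a genotype, over the 39 genes, was 3.48% in p212fs, 7.66% in D18N, 8.59% in Trex1-/- and 12.1% in WT, against 7.58% (p212fs) to 19.0% (WT) over the 16990 genes tested. These genes are not matched for level. WT replicate 1 was the highest WT library in 22 of the 39 genes, against 42.1% of all genes.

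Glycan breakdown and translocon genes were also compared between mutants. In p212fs against Trex1-/-, 9 of the 11 glycan breakdown genes rose and none fell, and 8 of the 15 translocon and signal peptidase genes rose and none fell. Sec61g was 1.27 ± 0.17 and Sec61b 1.09 ± 0.15 on the log2 scale. In p212fs against D18N, 6 of 11 and 9 of 15 rose, and 1 translocon gene, Sec61a1, fell by 0.36 ± 0.12. The counts are read beside the 15.4% and 18.6% of all genes that were higher against Trex1-/- and D18N. The shares lower were 17.1% and 20.1%. Not all lists went one way. Of the 14 lectin chaperone and glycoprotein degradation genes, 7 rose and 3 fell against Trex1-/-, and 6 rose and 5 fell against D18N. Of the 18 Golgi genes, 3 rose and 5 fell against Trex1-/-, and 2 rose and 3 fell against D18N.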
